A study of Mus musculus with 60 samples.

Results

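H3K27ac in the sciatic dorsal root ganglia was compared directly between a peripheral and a central axotomy. The members are the H3K27ac peaks of sciatic nerve axotomy (SNA) and of dorsal column axotomy (DCA) that overlap, by 1 bp or more, an ATAC peak of any of the 4 surgeries in the study. They number 43100 of 75824 peaks (56.8%) in the SNA list and 27130 of 46489 peaks (58.4%) in the DCA list, or 70230 of the 1658065 distinct peaks in the 16 lists of the series. All groups were C57BL/6 mice aged 6 to 8 weeks, and ganglia were taken 24 hours after surgery. The other surgeries were a sham procedure at the sciatic nerve (Sham) and a laminectomy without axotomy (Lam), which served here as background. Each H3K27ac list was made from 2 ChIP samples of 10 mice each and each ATAC list from 3 samples of 1 mouse each, with the replicates pooled. There is therefore 1 list per surgery, no value below has a replicate error, and no test between the surgeries was possible.

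A dorsal root ganglion neuron sends a single axon that splits into a branch in the peripheral nerve and a branch that enters the spinal cord. Dorsal column axotomy cuts the central branch only of those neurons in which it climbs the dorsal columns. Cutting the peripheral branch starts a growth programme in the cell body that cutting the central branch starts weakly or not at all. H3K27ac is acetylation of lysine 27 on histone H3, laid down by the acetyltransferases p300 and CBP at promoters and enhancers in use. H3K9ac marks similar places, ATAC-seq marks DNA that a transposase can reach, and H3K27me3 is deposited by Polycomb complexes at silenced genes. A ganglion also holds satellite glia, Schwann cells, macrophages and vessel cells, and in whole tissue fewer cells of a type and less signal per cell cannot be told apart.

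The read depth of a sample is not in the files. A background level recovered from the peaks themselves was 12.4 reads per kb for SNA, scaled from 16.4, and 10.3 for DCA, against 12.5 for Sham and 14.7 for Lam. The SNA list stood apart from the other 3 before any limit to open DNA: 2.6% of its strongest 1000 peaks lay outside every ATAC peak, against 45.9% for DCA, 42.5% for Sham and 25.6% for Lam. It also lacked strong places that the others held. Of the strongest 1000 peaks in open DNA, 57.1% of the Sham, 26.2% of the Lam and 54.7% of the DCA peaks had no partner in the whole SNA list, while 0.8% of the Sham and 1.2% of the Lam peaks had none in the DCA list. DCA-only places of high rank are thus places that the SNA list lacked against every other surgery. Why the SNA list differs in this way was not tested. The labelled tissue was checked against markers within 1 kb of the gene start. Of 8 sensory neuron markers, 2 (Avil and Prph) had H3K27ac in the SNA list and 0 in the DCA list, against 1 in Sham and 2 in Lam, although all 8 had an ATAC peak in both injuries. Of 5 Schwann cell markers, 4 had H3K27ac in SNA and 3 in DCA, against 5 in Sham and 5 in Lam. All 3 satellite glia markers had it in SNA and in Lam, and 1 in DCA and in Sham. Of 3 endothelial markers, 1 had it in SNA and in Sham and 0 in DCA and in Lam. Of 4 fibroblast and mural cell markers, 1 had it in SNA, Sham and Lam and 0 in DCA. None of 5 macrophage and 3 oligodendrocyte markers had it in any of the 4 lists. The share of the one-list results that follows these differences between cell types was not tested.

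The sequences at starts on either side of the comparison are shown first, because the starts that held H3K27ac in an injury list differed in CpG content from those that held none. The lines give the 250 bases before the RefSeq transcription start (GRCm38.p6), 5′ to 3′ on the strand of the gene, with each CpG dinucleotide in capitals. Mrps2 (chr2:28467816-28468065, plus strand), Gadd45a (chr6:67037408-67037657, minus strand), Prph (chr15:99054924-99055173, plus strand) and Avil (chr10:127000459-127000708, plus strand) had H3K27ac at the start in the SNA list only. Fam117b (chr1:59912756-59913005, plus strand), Nr4a3 (chr4:48045055-48045304, plus strand), Trpv1 (chr11:73233899-73234148, plus strand) and Scn9a (chr2:66634963-66635212, minus strand) had it in the DCA list only.
Mrps2: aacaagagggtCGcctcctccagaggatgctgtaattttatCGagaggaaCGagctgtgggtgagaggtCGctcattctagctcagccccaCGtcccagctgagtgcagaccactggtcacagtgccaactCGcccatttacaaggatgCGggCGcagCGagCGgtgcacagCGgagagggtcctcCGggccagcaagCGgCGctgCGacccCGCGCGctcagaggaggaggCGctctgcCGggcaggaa
Gadd45a: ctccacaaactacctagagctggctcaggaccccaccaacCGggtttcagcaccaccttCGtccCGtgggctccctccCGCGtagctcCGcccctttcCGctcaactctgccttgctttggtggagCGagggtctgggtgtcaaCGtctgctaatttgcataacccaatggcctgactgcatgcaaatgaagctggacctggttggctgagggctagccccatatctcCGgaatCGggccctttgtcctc
Prph: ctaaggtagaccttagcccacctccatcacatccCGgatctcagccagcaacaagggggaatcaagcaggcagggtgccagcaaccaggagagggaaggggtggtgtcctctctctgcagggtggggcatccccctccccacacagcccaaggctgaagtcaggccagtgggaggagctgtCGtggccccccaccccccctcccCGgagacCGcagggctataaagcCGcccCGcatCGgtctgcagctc
Avil: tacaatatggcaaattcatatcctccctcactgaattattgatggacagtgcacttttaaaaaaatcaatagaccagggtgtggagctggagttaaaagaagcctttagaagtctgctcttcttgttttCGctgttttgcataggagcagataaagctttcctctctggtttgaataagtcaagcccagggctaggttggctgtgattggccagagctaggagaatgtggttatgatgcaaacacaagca
Fam117b: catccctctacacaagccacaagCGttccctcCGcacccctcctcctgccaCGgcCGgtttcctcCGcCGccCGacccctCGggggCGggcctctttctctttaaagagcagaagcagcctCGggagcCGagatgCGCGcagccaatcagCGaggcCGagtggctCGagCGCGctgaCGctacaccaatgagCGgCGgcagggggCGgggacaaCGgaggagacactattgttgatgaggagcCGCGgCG
Nr4a3: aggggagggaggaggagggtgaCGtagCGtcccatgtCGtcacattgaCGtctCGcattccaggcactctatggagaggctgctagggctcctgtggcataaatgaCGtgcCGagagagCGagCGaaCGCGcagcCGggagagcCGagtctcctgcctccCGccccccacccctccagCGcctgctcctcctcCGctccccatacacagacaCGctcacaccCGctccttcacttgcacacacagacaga
Trpv1: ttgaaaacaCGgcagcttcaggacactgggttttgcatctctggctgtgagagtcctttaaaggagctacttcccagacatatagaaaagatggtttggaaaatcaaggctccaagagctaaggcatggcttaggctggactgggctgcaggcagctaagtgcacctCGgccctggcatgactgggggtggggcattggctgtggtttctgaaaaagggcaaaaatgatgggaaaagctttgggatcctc
Scn9a: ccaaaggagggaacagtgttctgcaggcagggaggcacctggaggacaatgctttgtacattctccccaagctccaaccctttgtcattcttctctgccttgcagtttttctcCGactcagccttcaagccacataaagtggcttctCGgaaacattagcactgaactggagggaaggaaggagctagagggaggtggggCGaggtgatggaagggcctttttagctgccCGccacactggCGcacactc

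The printed stretch holds 20 CpG in Mrps2, 11 in Gadd45a, 7 in Prph and 1 in Avil. It holds 26 in Fam117b, 18 in Nr4a3, 5 in Scn9a and 2 in Trpv1. CpG-rich and CpG-poor starts thus occur on both sides, and the 4 sensory neuron genes are the poor ones. Over all starts in the promoter table, the median was 14 CpG for genes with H3K27ac in SNA only (2293 starts) and 12 for DCA only (424 starts). It was 16 for genes with H3K27ac in both lists and 3 for genes with it in neither. Motifs were sought on both strands of the 300-base window that runs from 250 bases before to 50 after the start. The AP-1 letters TGANTCA occurred in 4.71% of SNA-only starts (3.92 to 5.66) and 5.66% of DCA-only starts (3.83 to 8.28), against 4.66% of starts with H3K27ac in both and 6.99% of all starts. Ranges in parentheses after a share are Wilson 95% intervals, here and below, and they cover counting error only. The letters TGACGTCA, bound by CREB and ATF factors, were in 2.88% of SNA-only and 3.54% of DCA-only starts. The STAT letters TTCNNNGAA were in 7.46% and 7.55%, and the E-box letters CANNTG, which may overlap the others, in 65.5% and 68.6%. All 4 motif shares had overlapping intervals between the injuries. Over all starts these shares were 2.23%, 7.69% and 69.0%.

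Among the limited peaks, 22650 of 43100 SNA peaks (52.6%, 52.1 to 53.0) overlapped no limited DCA peak, and 6564 of 27130 DCA peaks (24.2%, 23.7 to 24.7) overlapped no limited SNA peak. The SNA list is the longer one, and with the SNA list reduced to its strongest 27130 peaks by −log10 p the shares were 39.2% (38.6 to 39.8) and 36.1% (35.5 to 36.7). The Lam and Sham lists, neither with an axotomy, gave 50.6% for Lam and 21.5% for Sham on all peaks, and 38.2% and 34.4% at equal sizes. One-list peaks were thus about as frequent between the laminectomy and the sham operation as between the injuries.

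The strongest peaks departed from that background in one direction. The −log10 p and fold values of a peak are the authors' and were used here to rank peaks within their own list. Of the strongest 1000 DCA peaks, 547 (54.7%, 51.6 to 57.8) had no partner anywhere in the SNA list of 75824 peaks. The strongest 1000 SNA peaks lacked a partner in the DCA list in 3.1% of cases, Lam peaks lacked one in Sham in 2.2% and Sham peaks one in Lam in 0.8%. The DCA share fell to 33.5% for ranks 1001 to 2000 and 18.9% for ranks 2001 to 3000. Of the strongest 1000 DCA peaks, 1.2% lacked a partner in the Lam list and 0.5% in the Sham list. Strong places of the DCA list that the SNA list lacks were thus present in both lists without axotomy. With the strongest 1000 peaks of each list left out, an alternative chosen after seeing the data, the shares over all ranks were 53.7% for SNA only and 23.0% for DCA only.

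**Figure D1:**
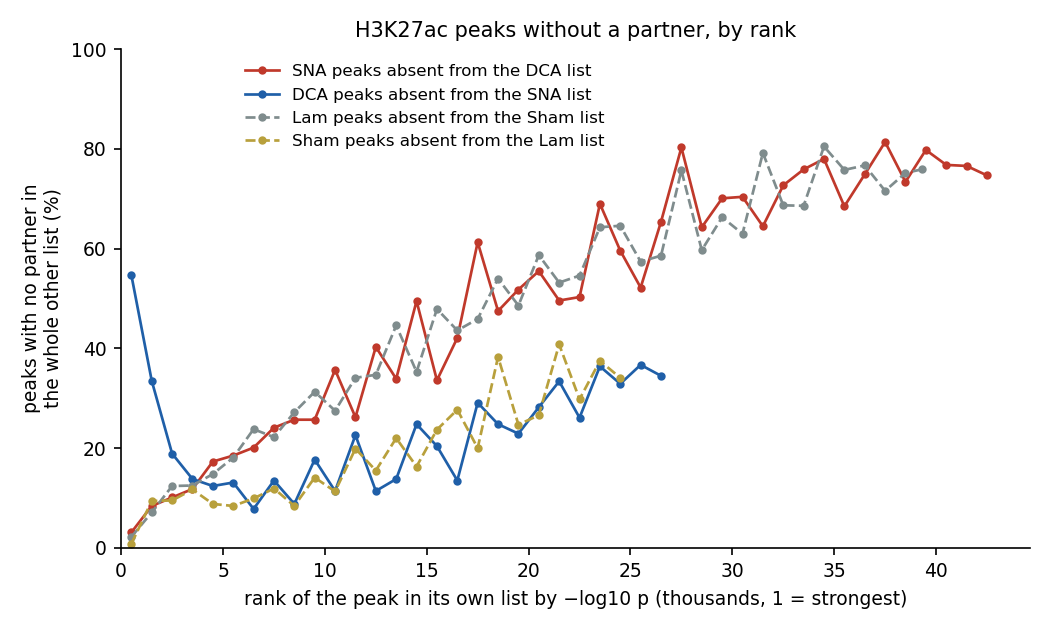
Share of limited H3K27ac peaks (%) without a partner in the whole other list, in bins of 1000 peaks by rank in their own list, for SNA and DCA against each other (solid) and Lam and Sham against each other (dashed). The DCA curve starts at 54.7% and comes down to 12.4% by the fifth bin, while the SNA curve starts at 3.1% and rises with rank, as the Lam curve does.

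The one-list places were described by the lists that took no part in the split. The ATAC lists had set the limit to open DNA, so each place held an ATAC peak of at least 1 surgery by rule. Among the strongest 10000 peaks of each injury, 1648 SNA peaks (16.5%) and 1942 DCA peaks (19.4%) had no partner in the whole other list. The SNA-only places were mostly gene starts with the other active marks: 59.0% (56.6 to 61.3) lay within 1 kb of a gene start, 96.2% (95.2 to 97.1) held an H3K9ac peak in the DCA list and 83.5% in the SNA list, and 85.0% held an ATAC peak in DCA and 84.6% in SNA. Most of these strong places without H3K27ac after DCA thus held H3K9ac and an ATAC peak after DCA. Fewer of the strong DCA-only places did: 17.1% (15.5 to 18.8) lay at a gene start, 32.1% (30.0 to 34.2) held H3K9ac in DCA and 12.3% (10.9 to 13.8) in SNA, and 52.8% and 54.1% held an ATAC peak in DCA and in SNA. Of the strong DCA peaks that the SNA list shared, 61.3% lay at a gene start and 98.1% held H3K9ac in DCA. Of the strong SNA peaks that the DCA list shared, 63.0% lay at a gene start. H3K9ac was at 99.3% of them in DCA and 94.3% in SNA, and an ATAC peak in DCA at 90.5%. The SNA-only places thus had the traits of strong SNA peaks in general, in somewhat lower shares. Over all ranks the contrast between SNA-only and DCA-only places was smaller. H3K9ac in DCA was at 72.8% of all SNA-only and 50.0% of all DCA-only places and H3K9ac in SNA at 63.4% and 32.3%, while an ATAC peak in DCA was at 61.7% and 55.6% and one in SNA at 64.8% and 58.7%.

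**Figure D2:**
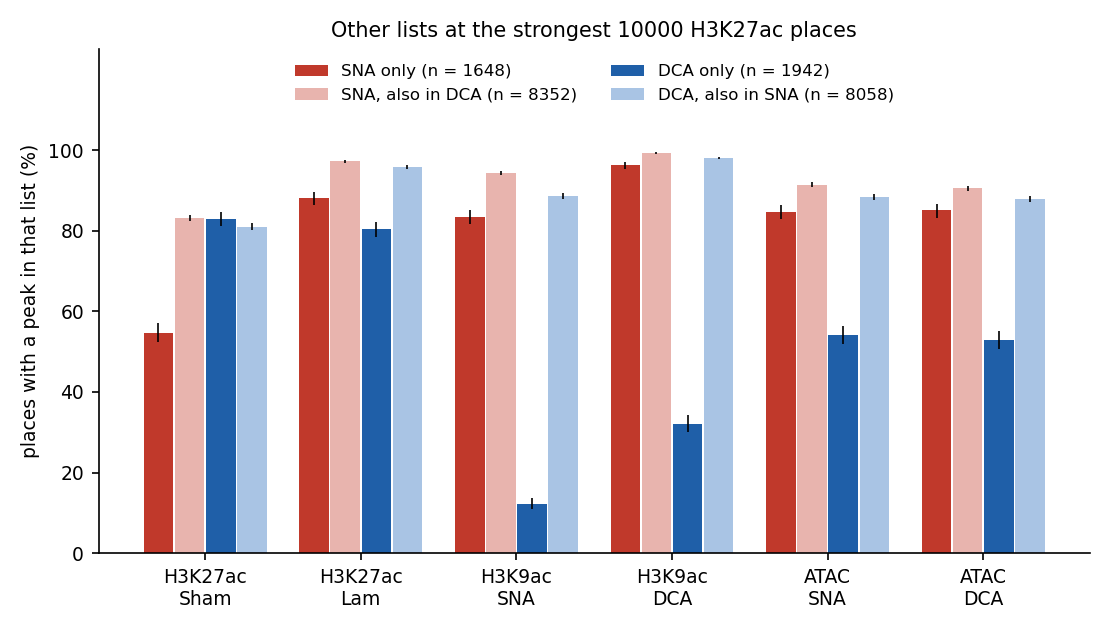
Share (%) of the strongest 10000 H3K27ac places of each injury that also hold a peak in 6 other lists, split into places absent from and present in the other injury list; error bars are Wilson 95% intervals. Among these strong places H3K9ac was at 83.5% (SNA list) and 96.2% (DCA list) of the SNA-only ones and at 12.3% and 32.1% of the DCA-only ones.

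H3K27ac without axotomy differed between the 2 kinds of place as well, mainly in Sham. Of the 1648 strong SNA-only places, 88.0% (86.4 to 89.5) also held H3K27ac in Lam and 54.7% (52.3 to 57.1) in Sham. Of the 1942 strong DCA-only places, 83.0% (81.3 to 84.6) held it in Sham and 80.3% (78.5 to 82.0) in Lam. At strong places shared by the injuries it was in Lam at 97.3% of the SNA and 95.8% of the DCA peaks. In Sham it was at 83.2% and 80.9% of these shared peaks, and 1.26% and 2.10% were in neither control list. Beside the shared places, the Sham share was thus low for SNA-only places alone. Places that neither control list held were 134 (8.13%, 6.91 to 9.55) of the SNA-only and 163 (8.39%, 7.24 to 9.71) of the DCA-only set. Of the 547 within the strongest 1000 DCA peaks, 546 were in Sham, 536 in Lam and 19 (3.47%) under H3K9ac in SNA, and 73 (13.3%) lay at a gene start. Over all ranks, 8651 SNA peaks and 2361 DCA peaks had no partner in any of the other 3 H3K27ac lists.

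Taken over all ranks together, the one-list places lay more often outside gene starts than the shared ones. Of the SNA-only peaks 26.3% lay within 1 kb of a start, 50.3% elsewhere in a gene and 23.4% between genes, and of the DCA-only peaks 19.2%, 54.3% and 26.6%. Of the shared peaks, 51.1% of those in the SNA list lay at a start. Among the strongest 10000 peaks the gap was small in SNA, with 59.0% of one-list and 63.0% of shared peaks at a start. In DCA it was large there, with 17.1% and 61.3%. Over all ranks one-list peaks were also narrower, with a median width of 402 bp in SNA and 410 bp in DCA against 705 and 614 bp for shared peaks. A shared peak lay within 5 kb of 39.2% of the SNA-only and 30.7% of the DCA-only peaks. The reference tables used here give the ends and starts of genes, so peaks were not divided further by exon or intron.

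H3K27ac within 1 kb of the start was then counted for 21883 protein-coding genes (for 4392 of them without a listed start, both ends of the gene served as starts). It was in both injury lists for 8636 genes (39.5%), in SNA only for 2325 (10.6%) and in DCA only for 477 (2.18%). With equal list sizes the numbers were 1644 (7.51%) for SNA only, all among the 2325, and 1071 (4.89%) for DCA only, which include all 477; both inclusions follow from how the list was shortened. The same count gave 2885 genes for Lam only and 425 for Sham only, or 2125 and 1032 at equal sizes. Of the SNA-only genes, 77.1% (75.4 to 78.8) had H3K27ac at the start in the whole Lam list and 46.0% in the whole Sham list. Of the DCA-only genes, 68.8% (64.5 to 72.8) had it in Lam and 42.1% in Sham, and of all genes 51.3% and 40.4%. H3K9ac in the DCA list covered 96.2% (95.3 to 96.9) of the SNA-only starts and 85.1% (81.6 to 88.0) of the DCA-only starts, and in the SNA list 80.3% and 54.3% (49.8 to 58.7). Over all genes H3K9ac covered 59.9% of starts in the DCA list and 51.4% in the SNA list. The DCA-only share in the SNA list was thus near that of all genes. H3K27me3 in the SNA list was at 20.5% (17.2 to 24.4) of the DCA-only starts, 8.77% (7.69 to 9.99) of the SNA-only starts, 3.60% of the starts with H3K27ac in both and 16.9% of all starts. In the DCA list it was at 9.01%, 3.35%, 1.52% and 8.46%, in the same order, so the DCA-only share was near that of all genes. An ATAC peak was at 91.6% to 96.3% of both one-list groups in both injuries, against 70.7% of all starts in SNA and 70.1% in DCA. The limit to open DNA favours a high share here, because each peak counted overlapped an ATAC peak by rule.

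The SNA-only starts with the highest ranks belonged to genes of varied function. Mrps2, a protein of the small mitochondrial ribosomal subunit, had an SNA peak at chr2:28467755-28468752 (rank 360, 10.4-fold over background). Its nearest DCA peak was 20100 bp away, and Sham and Lam both held H3K27ac there. Rps6kc1, a ribosomal S6 kinase relative (rank 642), Nfatc3, a transcription factor switched on by calcineurin (rank 665), and Fan1, a nuclease of DNA crosslink repair (rank 989), were also covered in Sham and Lam. So were D8Ertd738e and Tmem260. Around Nfatc3 and 10 kb on either side there were 4 SNA peaks and 0 DCA peaks in open DNA, with 2 in Sham and 2 in Lam. A DCA peak outside open DNA lay 1223 bp from the Nfatc3 peak. Trafd1, a feedback inhibitor of innate immune signalling (rank 664), and Tnnc1, the troponin C of slow and cardiac muscle, were covered in Lam and not in Sham. For Gm52006 and Apobr a DCA peak overlapped the SNA peak itself but did not reach within 1 kb of the start, and at Tnnc1 a DCA peak lay 231 bp from it, so these calls concern the window rather than the place. All 10 starts had H3K9ac in both injuries, and all but Gm52006 and Tnnc1 had an ATAC peak in both. With a window of 5 kb the calls of Gm52006, Trafd1, Apobr and Tnnc1 were lost.

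The 10 DCA-only starts of highest rank were all covered in both controls, unlike the 477 as a whole, of which 155 were covered in both and 129 in neither within open DNA. Fam117b had a DCA peak at chr1:59912370-59912963 (rank 17, 32.5-fold over background), and Edc3, which promotes removal of the mRNA cap, one at chr9:57708483-57709257 (rank 19, 29.7-fold). The nearest SNA peak was 1226 bp away at Fam117b and 11260 bp away at Edc3. Clec16a, a regulator of mitophagy (rank 75), and the neighbours Dgkq, a diacylglycerol kinase, and Idua, the lysosomal iduronidase, which share 1 peak (rank 110), followed. Then came Ppp2r1b, a scaffold subunit of protein phosphatase 2A (rank 116), and Tarbp1, an RNA methyltransferase (rank 238). Nr4a3, an orphan nuclear receptor made as an immediate early gene, had a DCA peak at chr4:48044347-48045586 (rank 279, 14.4-fold), with an SNA peak 480 bp from it. Syt5, a synaptotagmin of vesicles, and Gria4, an AMPA receptor subunit, completed the 10. All 10 starts held H3K27ac in Sham and in Lam and had ATAC peaks in both injuries. H3K9ac was in the DCA list at 9 of them, all but Syt5, and in the SNA list at 3 (Dgkq, Idua and Ppp2r1b). With a window of 5 kb the calls of Fam117b, Clec16a and Nr4a3 were lost.

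Genes whose start had H3K27ac in 1 of the 4 lists were fewer: 388 for SNA (1.77% of all genes) and 111 for DCA (0.507%). The highest ranks in SNA, chosen after their values were seen, were the neighbours Ccdc18 and Tmed5 (1 shared peak, rank 2221), then Gm5373, the mitotic kinesin Kif4 with its neighbour Pdzd11, Ciz1, a DNA replication factor, and Mfn1, which fuses mitochondria. In DCA they were Cdc25a, a phosphatase that drives the cell cycle (rank 4012), Ypel1, Rragd, a GTPase that signals amino acids to mTORC1, Ran, the GTPase of nuclear transport, and Nfkbid, an inhibitor of NF-κB. All of these starts had an ATAC peak in all 4 surgeries and H3K9ac in the DCA list. At these named starts ATAC peaks were thus more widespread than the H3K27ac of 1 list. Over the full sets, H3K9ac in the SNA list was at 63.7% of the 388 and 45.9% of the 111 starts, against 51.4% of all genes. In the DCA list it was at 87.6% and 77.5%, against 59.9%. H3K27me3 in the SNA list was at 16.8% and 25.2%, against 16.9%.

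The immediate injury response was examined in 22 AP-1 and ATF factors, the basic leucine zipper proteins that bind AP-1 and CRE sites. H3K27ac was at the start in both lists for 17, in SNA only for 2 (9.09%, against 10.6% of all genes), in DCA only for 0 and in neither for 3. At equal list sizes 7.51% of all genes were SNA only and 4.89% DCA only. Of these factors the same 2 remained SNA only and Maff, a small Maf factor, became DCA only. Atf3 and Jun, which mark injured sensory neurons, had it in all 4 lists, as did Fos. Jund, a constitutive AP-1 partner, had an SNA peak at chr8:70698458-70698844, and Batf3, which acts in dendritic cells, one at chr1:191097743-191098309. The nearest DCA peak at Jund was 933 bp from that SNA peak, and the Jund call was lost with a window of 5 kb or without the limit to open DNA. Jund was the member with the largest difference in peak number within the gene and 10 kb on either side: 9 in SNA, 1 in DCA, 3 in Sham and 8 in Lam. Over the list this number was 88 in SNA and 69 in DCA, a log2 ratio of 0.35, against 0.60 over all genes. In Sham it was 66 and in Lam 90. Over all genes the peaks numbered 51847 in SNA, 47837 in Lam, 34162 in DCA and 31194 in Sham.

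Of 48 regeneration-associated genes, 22 had H3K27ac at the start in both lists and 20 in neither. In SNA only there were 6 (12.5%, against 10.6% of all genes) and in DCA only 0 (against 2.18%). All but Tnfrsf12a of the 6 kept the call at equal list sizes. There 3 genes marked in both became DCA only: Flrt3, Tubb3 and the adhesion molecule gene L1cam. Gadd45a, a stress protein that acts in DNA demethylation and repair, had a peak at chr6:67036830-67037188 in SNA and no DCA peak within 7480 bp. Sham and Lam both covered the Gadd45a start. Hspb1, a small heat shock protein that protects injured neurons, had 3 SNA peaks in the gene and its flanks against 1 in DCA, 2 in Sham and 4 in Lam. Creb1, the cAMP response factor, had 4 against 0, with 0 in Sham and 3 in Lam. Ngfr, the p75 neurotrophin receptor, had its start peak in SNA and in neither control. Tubb6, a tubulin, was covered in Sham and Lam. The Ngfr and Tubb6 calls were lost with −log10 q of at least 5, and a DCA peak lay 882 bp from the Ngfr peak. Sox11, Gal, Sprr1a and Gap43, whose transcripts are classical signs of regeneration, had no H3K27ac in open DNA at the start in either injury list. At Gap43, for which both gene ends served as starts, the DCA list held a peak outside open DNA, and Sox11 was marked in DCA only with a window of 5 kb. Sox11 and Gal had an ATAC peak at the start in SNA and DCA, Gap43 in DCA, and all 4 had H3K27me3 in the SNA list. In the DCA list Gap43 alone of the 4 had H3K27me3. That mark covered 16.9% of all starts in the SNA list and 8.46% in the DCA list. Klf6, Stat3, Socs3 and Smad1 had H3K27ac in both.

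The gp130 pathway carries signals of interleukin 6 family cytokines through Jak kinases to Stat3. Of its 23 genes, 13 had H3K27ac at the start in both lists and 6 in neither. In SNA only there were 3 (13.0%, against 10.6% of all genes) and in DCA only 1 (4.35%, against 2.18%). None of the ligand genes Il6, Lif, Osm and Cntf was among those with H3K27ac at the start, and Il11 was the DCA-only gene, with H3K27ac also in Lam and not in Sham and with an SNA peak 443 bp from it. The receptor Il6ra had 14 SNA peaks in the gene and its flanks against 4 in DCA, 3 in Sham and 14 in Lam. A DCA peak outside open DNA lay 871 bp from the Il6ra start peak at chr3:89912062-89912928. The receptor Lifr, marked at the start in both, had 34 against 18, with 19 in Sham and 26 in Lam. The kinase Jak1 had its start peak in SNA and in Lam. At both receptor genes SNA and Lam thus had more peaks than DCA and Sham, as they did over all genes. Tyk2 lost its SNA-only call at equal sizes, and Il11 and Jak1 lost theirs with −log10 q of at least 5.

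**Figure D3:**
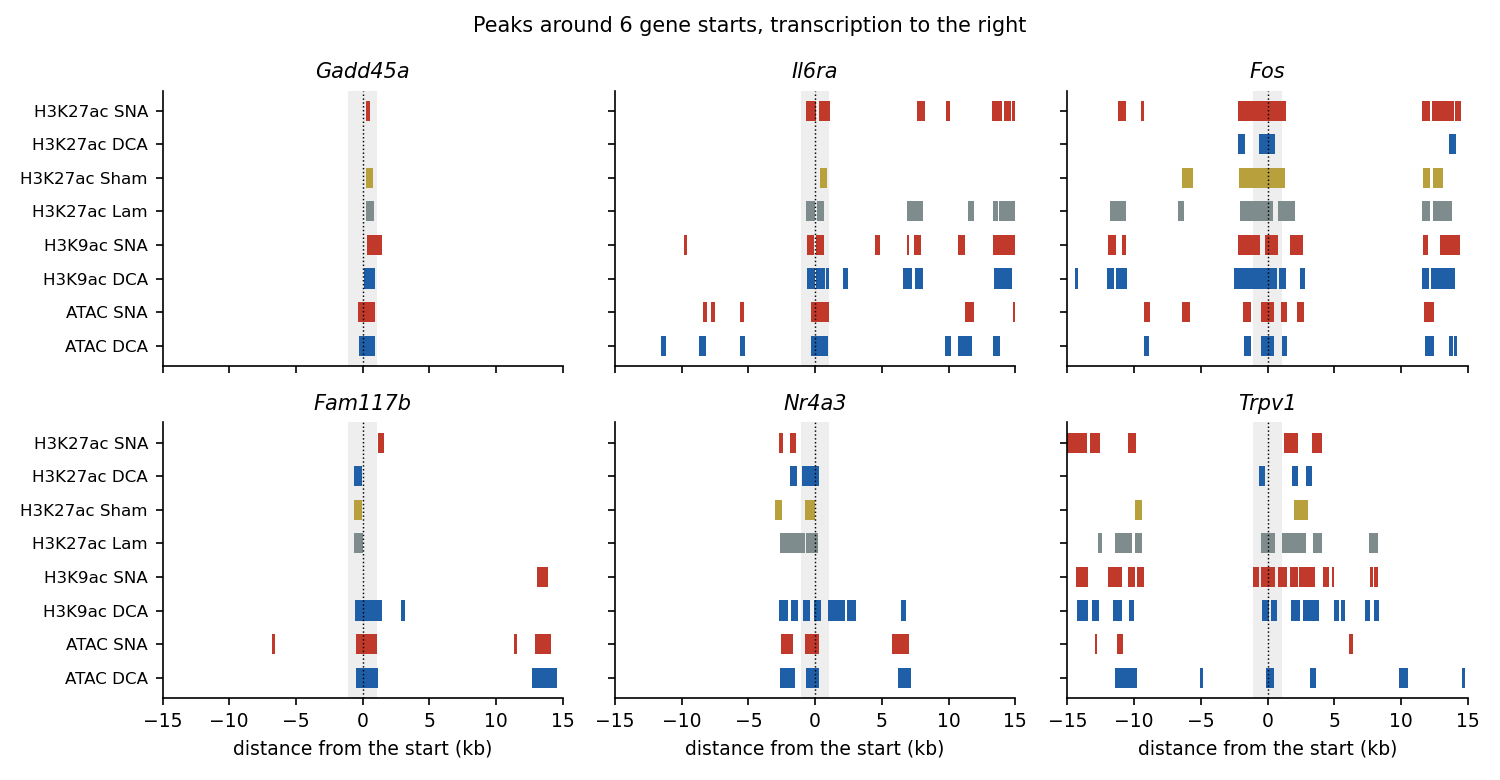
Peaks (of H3K27ac, those in open DNA) within 15 kb of 6 gene starts, drawn to scale as distance from the start (kb) in the direction of transcription, in 8 lists; grey bands mark 1 kb on either side of the start. In H3K27ac, Gadd45a and Il6ra lack a DCA peak in the band, Fam117b, Nr4a3 and Trpv1 lack an SNA peak in it, and Fos has an SNA peak at 11.5 kb where DCA has none.

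Genes of sensory neuron identity mostly lacked the mark. Of 26, 18 had H3K27ac at the start in neither list, 4 in both, 2 in SNA only (7.69%) and 2 in DCA only (7.69%). Over all genes the shares were 47.7% in neither, 39.5% in both, 10.6% in SNA only and 2.18% in DCA only. Avil, which codes for the actin binding protein advillin, had its peak at chr10:127001112-127001470 in SNA and in neither control. Prph, the intermediate filament peripherin, had one at chr15:99055774-99056014 in SNA, also in Lam. The nearest DCA peaks were 19771 bp and 25119 bp away. Trpv1, the heat and capsaicin channel, had a DCA peak at chr11:73233474-73233988, also in Lam, with an SNA peak 1364 bp from it. Scn9a, the sodium channel of pain fibres, had one at chr2:66634445-66634996 in DCA alone, near the bottom of that list (rank 24963). Of these 4 calls, Prph alone remained with −log10 q of at least 5, and Trpv1 was lost with a window of 5 kb.

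Of 43 ion channel genes, 7 were marked in both, 4 in SNA only (9.30%, against 10.6% of all genes), 4 in DCA only (9.30%, against 2.18%) and 28 in neither. At equal list sizes 2 were marked in SNA only and 6 in DCA only, against 7.51% and 4.89% of all genes. Beside Trpv1 and Scn9a, the DCA-only genes were the glutamate receptors Gria4 and Grik1, whose nearest SNA peaks lay 418831 bp and 116907 bp away. Both were covered in Sham and Lam. Scn2a, a sodium channel with a peak in SNA alone of the 4 lists, held its SNA-only call at equal sizes. Among 36 axon guidance genes, 12 were marked in both and 16 in neither. In SNA only there were 6 (16.7%, against 10.6% of all genes) and in DCA only 2 (5.56%, against 2.18%). At equal sizes 3 were SNA only and 3 DCA only, against 7.51% and 4.89% of all genes. The guidance cue Slit2 was then added on the DCA side. Ntn1, which codes for netrin, had 5 SNA peaks and 0 DCA peaks, with 2 in Sham and 5 in Lam, but its start call was lost with no limit to open DNA. Efnb1, an ephrin, was marked in SNA and Sham, and Epha5, an Eph receptor, in SNA alone. Efna5, another ephrin, and Plxna4, a semaphorin co-receptor, were marked in DCA and Lam. With −log10 q of at least 5 the Epha5 and Efna5 calls were lost.

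Glial genes were marked widely. With all peaks their one-list calls all fell to SNA, as they did in most of the 13 lists. Over all genes 10.6% were SNA only and 2.18% DCA only, so DCA-only members are rare in lists of this length. Of 23 genes of satellite glia and Schwann cells, 14 were marked in both, 5 in SNA only (21.7%), 0 in DCA only and 4 in neither. Kcnj10, the potassium channel of satellite glia, and Prx, the periaxin of myelin, kept the call at equal sizes. Fabp7, Gfap and Ncmap lost it. Kcnj10 had 10 SNA peaks against 5 in DCA, 4 in Sham and 8 in Lam. Of 20 genes of endothelium, fibroblasts and mural cells, 3 were marked in both, 4 in SNA only (20.0%) and 0 in DCA only, with the tight junction gene Cldn5 and the collagen gene Col1a1 kept at equal sizes. Col1a1 had 9 SNA peaks against 3 in DCA, 2 in Sham and 8 in Lam. At Kcnj10 and Col1a1, SNA and Lam had the most peaks, as they did over all genes. Of 25 macrophage and inflammatory genes, 2 were marked in both and 2 in SNA only (8.00%), of which Spi1, whose product is the main transcription factor of myeloid cells, held at equal sizes. Spi1 has no listed start. Its peak lay by the gene end at chr2:91115759 and not by that at chr2:91082374, so the call may not concern the start. Of 10 oligodendrocyte and spinal cord genes, Sox2 was marked in both and Aldh1l1 in SNA only. With a window of 5 kb the calls of Prx, Col1a1 and Spi1 were lost, and with −log10 q of at least 5 those of Cldn5 and Spi1.

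Housekeeping genes were taken as a further comparison. Of 34 cytosolic ribosomal protein genes, 27 were marked in both, 6 in SNA only (17.6%) and 0 in DCA only, and Rpl4, Rpl5, Rpl8 and Rps20 were among those that kept the call at equal sizes. Of 24 genes of sterol and fatty acid synthesis, 19 were marked in both and 3 in SNA only (12.5%), and Hmgcs1 and Lss, enzymes of cholesterol synthesis, kept it. The Hmgcs1 call was lost with no limit to open DNA, those of Lss and Rps20 with −log10 q of at least 5, and that of Rpl8 with a window of 5 kb. Of 24 histone acetylation enzymes and readers, 21 were marked in both, among them the acetyltransferases Ep300 and Crebbp, and 2 in SNA only (8.33%). The share in SNA only ran from 7.69% to 21.7% over the lists, with 10.6% over all genes. It was 17.6% or more for glial, vascular and ribosomal protein genes. These shares count every member, marked or not, and 1 ribosomal protein gene was marked in neither list, against 47.7% of all genes. Of all genes marked in SNA, 21.2% were SNA only, so 6 ribosomal protein genes beside 27 in both are no surplus. At equal list sizes SNA only held 2 of 23 glial, 2 of 20 vascular and 5 of 34 ribosomal protein genes, against 7.51% of all genes, so the glial share came near that of all genes. In peaks within the genes and 10 kb, the log2 ratio of SNA over DCA ran from 0.35 for AP-1 and ATF factors to 0.84 for endothelium, fibroblasts and mural cells, and was 0.45 for regeneration-associated genes, against 0.60 over all genes.

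**Figure D4:**
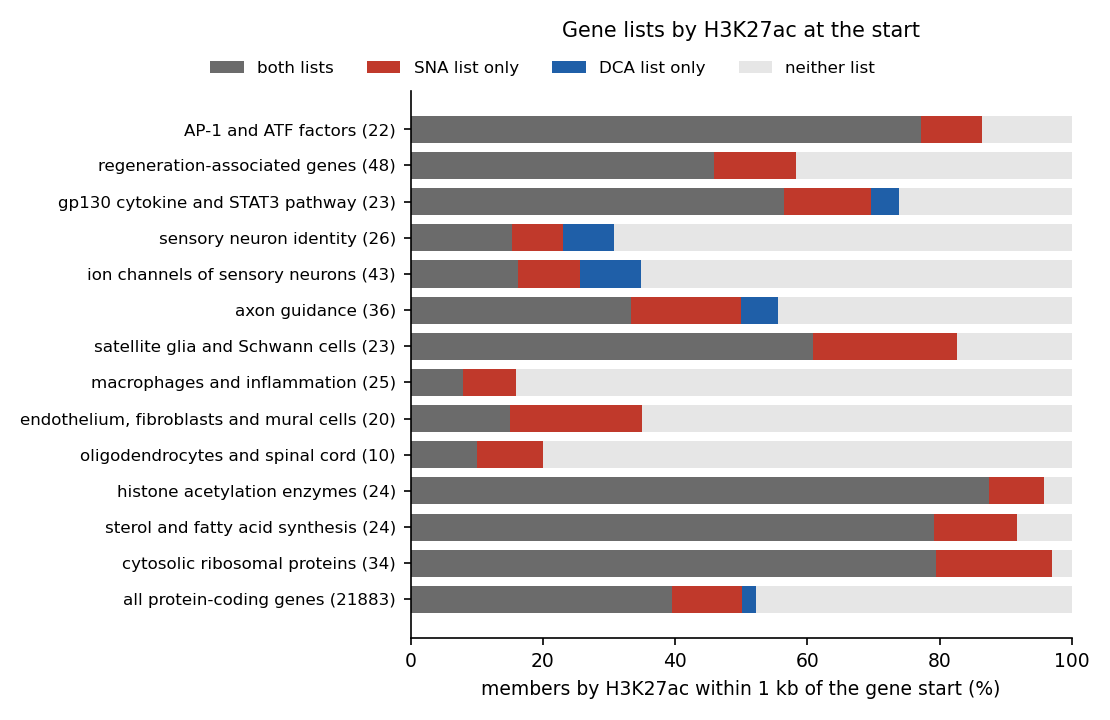
Members of each gene list (number in parentheses) by H3K27ac within 1 kb of the start, as percent in both injury lists, SNA only, DCA only or neither. The SNA-only share is 10.6% over all genes and 21.7% in satellite glia and Schwann cell genes, and DCA-only members occur in 4 of the 13 lists.

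Away from starts, the strongest SNA-only places included sites beside Fos and Fosb. The site at chr12:85485430-85486082 (rank 627, 9.61-fold) lay 8.16 kb beyond the end of Fos and 11.5 kb from its start, with the nearest DCA peak in open DNA on that side 13.6 kb from the start. That at chr7:19319412-19320095 (rank 1137, 8.59-fold) lay 9.29 kb from Fosb. The others were chr3:5576073-5576873 in Pex2, a peroxisome gene, chr5:23418577-23419345, which lay 13.7 kb from Kmt2e, a gene of the MLL family, and chr9:63123604-63124284, which lay 13.9 kb from Skor1. H3K27ac was present in both Sham and Lam at 4 of the 5 and in Lam at the site in Pex2. H3K9ac and ATAC peaks were present at all 5 in all 4 surgeries, DCA included. The ATAC peak in SNA was a condition of the choice of these sites. The DCA list was thus the one without H3K27ac at the sites near Fos and Fosb.

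The strongest DCA-only places away from starts had higher ranks. They were chr14:25723783-25725279 in Zcchc24 (rank 47, 21.6-fold), chr9:120582855-120583414, which lay 8.20 kb from Rpl14 (rank 51), chr16:56064269-56064811 in Senp7 (rank 65), chr2:165986836-165987361 in the gene model LOC115489489 (rank 71) and chr12:55450537-55451254, which lay 32.1 kb from Psma6 (rank 76). All 5 were in Sham and in Lam, and all 5 had ATAC peaks in both SNA and DCA. The ATAC peak in DCA was a condition of the choice of these sites. H3K9ac was in the DCA list at 5 and in the SNA list at 1, the site in Zcchc24. The SNA list was thus the one without H3K27ac at these 5 sites.

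Sites in 1 of the 4 H3K27ac lists, chosen after their values were seen, ranked lower. In SNA the first was chr16:30069546-30070092 (rank 2622), 1.75 kb from Hes1, a repressor in Notch signalling. Others lay in Eva1c, a Slit receptor gene, in Limk2, a kinase that stabilises actin by phosphorylating cofilin, and 54.3 kb from Marcks, an actin and membrane linker. In DCA they included sites in Arid5b (rank 3509), a chromatin cofactor, and in Trp73 (rank 4078), a relative of p53 that supports neurons. The site near Hes1 had ATAC peaks in all 4 surgeries, and that in Arid5b in DCA alone.

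One-list places gathered at some genes. With equal list sizes and no partner in the whole other list, Prdm16, which codes for a zinc finger factor, had 20 SNA places against 2 DCA places within the gene and 10 kb on either side. Bcas3 had 14 against 2, Utrn, which codes for the dystrophin relative utrophin, 12 against 2, Plekha7 11 against 2, Gab1, an adaptor of receptor kinases, 10 against 0, and Lifr 8 against 0. All limited peaks numbered 34 in SNA, 11 in DCA, 8 in Sham and 22 in Lam at Utrn, and 26, 15, 11 and 24 at Gab1. SNA and Lam had the most at both, as they did over all genes. On the other side, Rbms3, an RNA binding protein gene of 1057 kb, had 2 SNA places against 14 DCA places, Prex1, a Rac activator, 1 against 9, Epb41l4b 0 against 7, the nuclear factor gene Nfix 4 against 11, and Abca1, a cholesterol exporter, 0 against 5. At Rbms3 the limited peaks numbered 20 in SNA, 25 in DCA, 18 in Sham and 37 in Lam. Long genes offer more room for places, and these genes were ranked by the count itself, so the counts are a description.

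**Figure D5:**
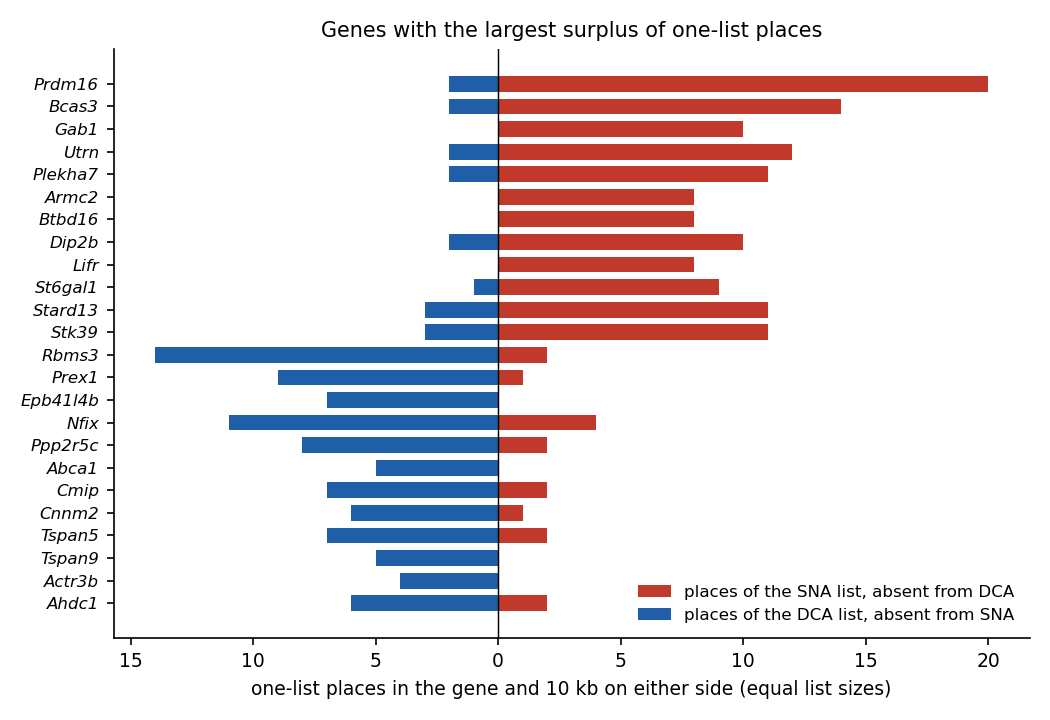
Number of one-list H3K27ac places in the gene and 10 kb on either side, at equal list sizes, for the 12 genes with the largest surplus on each side; SNA places run to the right and DCA places to the left. Prdm16 leads with 20 SNA against 2 DCA places, and Rbms3 with 14 DCA against 2 SNA places.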

How the data were processed

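Peak lists of H3K27ac ChIP-seq, with those of H3K9ac, H3K27me3 and ATAC-seq, were used as deposited, 1 per assay and surgery, with replicates pooled by the authors per the labels. The build is mm10 per the submitters' processing notes, and the aligner and the peak caller are not given in the sources used here. Peak names carry ranks up to 105645 in SNA and 130902 in DCA, so each list is part of a longer one. The rule of removal is not stated. The deposited display score, an integer, was not used. The deposited fold enrichment is a ratio over background, and each peak has a −log10 p and a −log10 q from the authors; all were used within a list only. Coordinates are counted from 1.

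Overlap of 1 bp or more counted as shared. Background reads per kb were recovered from fold and −log10 p, matched within 0.003 for 99.0% or more of the peaks of each list. Gene starts came from RefSeq GRCm38.p6 for 17491 of 21883 protein-coding genes, and for the other 4392 both gene ends were used (Batf3 and Jund have starts; among the named genes Syt5, Gap43, Grik1, Ntn1, Plxna4, Tubb6, Spi1, Col1a1, Rpl8 and Rps20 do not). Named were the 10 strongest one-list starts per injury that lacked a peak of the whole other list and held at equal sizes, the members of 13 gene lists with a call that held at equal sizes, and the 5 strongest one-list places over 1 kb from a start per injury. Such places also had to lack a partner in the whole other list and overlap an ATAC peak of their own surgery. Genes withheld from this text are not reported here. Injury genes outside that rule were chosen after the lists. Members and lists were chosen with earlier results of these data known. Scripts used Python 3.11.15, numpy 2.4.6, pandas 2.3.3, scipy 1.17.1 and matplotlib 3.10.9, and the overlap and depth steps were tested on simulated data. With 1 pooled list per surgery no test was made. The 7 alternatives and 1 added later are given in the closing section.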

Additional observations from a re-analysis of the deposited data

How the results depend on the processing

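With equal list sizes the SNA-only share of peaks was 39.2% and the DCA-only share 36.1%, with −log10 q of at least 5 57.3% and 34.6%, with a reciprocal overlap of 50% 73.1% and 57.3%, with an ATAC peak of the same surgery 53.1% and 25.7%, and with no limit to ATAC peaks 62.4% and 38.2%. Without the strongest 1000 peaks of each list, an alternative chosen after seeing the data, they were 53.7% and 23.0%. The DCA-only genes numbered 1071 at equal sizes and 774 with −log10 q of at least 5. In the order above, the gene-start share of SNA-only peaks was 36.3%, 46.4%, 29.9%, 34.0% and 14.7%, and that of DCA-only peaks 23.8%, 31.6%, 28.8%, 24.1% and 9.05%; with 5 kb in place of 1 kb they were 35.6% and 30.3%. The SNA-only share exceeded the DCA-only share in all of these. The cause of the shifts was not tested. Matched depth moved none of the 6 values beyond its interval or 1.5 times. It scaled the reads at called SNA peaks to the DCA background and dropped peaks then below the lowest −log10 p of the SNA list. This left 42993 of 43100 SNA peaks and could add none to either list, so it shows little about the effect of depth. Over all settings the SNA-only genes stayed between 1644 and 3154. At −log10 q of at least 5, 1158 of the 2325 SNA-only and 172 of the 477 DCA-only genes kept their call, and at 5 kb 1972 and 368. No gene changed sides. Of 55 named genes, 13 lost their call at −log10 q of at least 5, 16 at 5 kb, 3 with no limit, 1 with an ATAC peak of the same surgery, 13 without the strongest 1000 peaks and 0 at matched depth. The reciprocal overlap gives no gene count, and 5 kb no share of peaks. No paired analysis was possible because each list pools its replicates, and for the same reason no replicate could be left out. The depth of the samples is unknown, so a place without a peak is one not called, not one shown to lack H3K27ac.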

Other observations

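In the gene and 10 kb on either side, members with more SNA than DCA peaks numbered 17 of 23 in the glial list, 6 of 25 among macrophage and inflammatory genes, 7 of 20 among genes of endothelium, fibroblasts and mural cells and 4 of 10 among oligodendrocyte and spinal cord genes, against 8677 of 21883 over all genes. Members with more DCA than SNA peaks numbered 2, 3, 4 and 1, in the same order, against 1843 over all genes. Among ribosomal protein genes 20 of 34 had more in SNA and 4 more in DCA, and among sterol and fatty acid genes 19 of 24 and 1. Sema6d, an axon guidance gene marked at the start in both injuries, had 32 SNA peaks, 11 in DCA, 7 in Sham and 20 in Lam. Sema6a, marked at the start in neither, had 17, 6, 6 and 10. Piezo2, the touch channel, had 15, 5, 4 and 13, and Ntrk2, the BDNF receptor, 12, 5, 7 and 11. At each of these genes SNA and Lam had the most peaks, as they did over all genes.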
